A study of Arabidopsis thaliana with 4 samples.

Results

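Type-A response regulators of Arabidopsis thaliana were followed in roots supplied with ample or scarce phosphate. The 10 genes, ARR3 to ARR9 and ARR15 to ARR17, were taken by identifier, and all 10 were present among the 27655 genes of the deposited table. The roots came from wild-type Col-0 seedlings without a transgene, grown for 8 days at 625 µM phosphate (plus_Pi) or at 5 µM phosphate (low_Pi), with 2 libraries per group. The table's name adds that the roots were dark grown, a point on which the sample labels are silent. The study asked about cis-zeatin, a cytokinin, in the root's answer to phosphate shortage.

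Cytokinins are plant hormones that act through a relay of phosphate groups. Membrane histidine kinases bind the hormone, phosphotransfer proteins carry the signal to the nucleus, and type-B response regulators, which are transcription factors, then switch on their targets. Type-A response regulators are among the fastest of those targets. They hold the receiver domain that accepts the phosphate but lack the DNA-binding domain of type-B proteins, and most of them dampen the pathway that induces them, so that their transcripts are widely read as a measure of cytokinin response. The family falls into closely related pairs, ARR3 with ARR4, ARR5 with ARR6, ARR7 with ARR15, ARR8 with ARR9, and ARR16 with ARR17.

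The members did not move as one group in low_Pi. ARR7, ARR8, ARR9 and ARR5 were lower, ARR17 and ARR16 were higher, and ARR3, ARR4 and ARR6 stayed within 1.16-fold in the group means. Values are the deposited normalized counts, and log2 differences are low_Pi minus plus_Pi after a pseudocount of 41.5 (a share of 1e-06 of the mean column total), which understates the differences of genes with low values. The comparison took in the 18729 genes whose mean reached 41.5, among them 9 of the 10 members, all but ARR15. Because these are whole roots, fewer cells of a type and less RNA per cell cannot be told apart.

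The columns of a group were nearly proportional to each other. The chi-square per gene, after a common ratio, was 0.276 between the low_Pi columns and 0.435 between the plus_Pi columns, where independent read counts would give about 1, against 240.04 between low_Pi replicate 1 and plus_Pi replicate 1. That benchmark holds only for unscaled read counts. If the deposited values were scaled down, libraries that are independent could also give such low figures. Whether the columns of a group are 1 library or 2 was therefore not settled by these figures, and each group was cautiously counted as 1 sample. The differences thus lack a replicate check and carry no p-value or standard deviation. Column totals ran from 38831704 to 44635953. The second low_Pi column could be tied to its group but not to 1 library by name. IPS1, a non-coding RNA induced by phosphate starvation, had 27943 and 26144 in low_Pi versus 99 and 412 in plus_Pi, which follows the group labels. Its plus_Pi values were far from the common ratio of replicate 1 over replicate 2, which was 0.909. IPS1 was thus an exception to the near proportionality of the plus_Pi columns. All 6 root markers were detected, led by PYK10, a root-abundant beta-glucosidase gene, at 460496 to 549062. The 6 green tissue markers together summed to 4100 and 3798 in low_Pi and 5678 and 6203 in plus_Pi. The gap was not shared by all root markers. PYK10 and CASP1 lay above the green tissue marker CAB1 in every column, and SCR and SHR below it. EXPA7 and COBL9 lay above CAB1 in low_Pi and below it in plus_Pi. The median entered gene lay at a log2 difference of -0.26, so the difference of each type-A gene entered is also given relative to that gene. Differences of other genes include this shift unless stated otherwise.

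**Figure D1:**
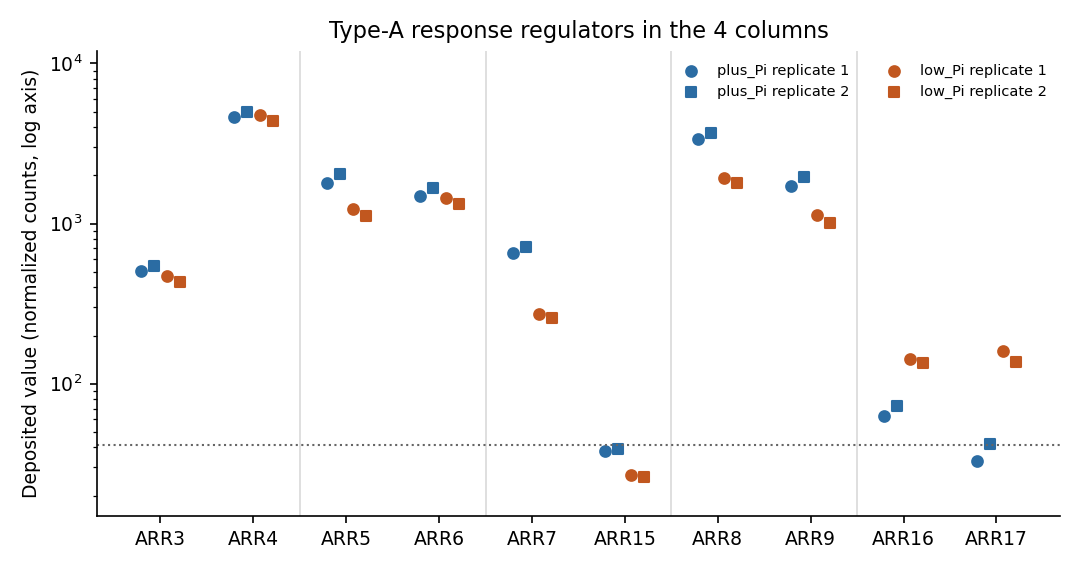
Deposited value of each type-A gene in the 4 columns (y axis, log scale; not corrected for gene length), with plus_Pi in blue, low_Pi in orange, circles for replicate 1 and squares for replicate 2. Vertical lines separate the related pairs and the dotted line marks the mean of 41.5 needed to enter. ARR7 and ARR8 sit lower and ARR16 and ARR17 higher in both low_Pi columns, while the ARR4 columns overlap.

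Of the 9 members entered, ARR17 was at least 2-fold higher, a size reached by 4.58% of all genes entered. ARR7 was at least 2-fold lower, as were 4.47% of all genes. The plus_Pi mean of ARR17, 37.5, lay below the 41.5 needed to enter, so this gene entered only through its low_Pi values. With median-of-ratios scaling these shares became 6.59% higher and 2.29% lower. As plain ratios of group means, ARR17 and ARR16 were 2-fold higher, as were 5.52% of all genes, and ARR7 was 2-fold lower, as were 7.5%. At 1.5-fold, 4 members were lower (ARR5, ARR7, ARR8 and ARR9), where 20.7% of all genes were, and 2 were higher (ARR16 and ARR17), where 8.77% were. The median member lay at -0.20, close to the median gene, and with the members on either side of 0 it describes few of them. Separation of the columns says little here. Both low_Pi columns were below both plus_Pi columns for 6 of 9 members, against 62.5% of all genes, and above them for 2, against 21.9%. With median-of-ratios scaling these became 4 and 5 members, against 47.7% and 47.6%. limma fitted over the 4 columns, with Benjamini-Hochberg adjustment, called 6 of 9 members, where it called 69.1% of all genes, and 9 members with median-of-ratios scaling, where it called 90.7%. Those calls weigh nothing but the spread within each column pair.

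ARR7 and ARR15 are close relatives that take part in stem cell specification in shoot and embryonic root. ARR7 (AT1G19050) had 272 and 258 in low_Pi versus 658 and 712 in plus_Pi. Every low_Pi value was far below every plus_Pi value, and the group means, 265 and 685, differed 2.58-fold. The log2 difference was -1.24, or -0.99 relative to the median gene, and 2.23% of all genes entered were as low or lower. The 2-fold call was lost with median-of-ratios scaling (-0.99) and with a pseudocount of 208 (-0.92). ARR15 (AT1G74890) had 27 and 26 in low_Pi versus 38 and 39 in plus_Pi. It was lower in both low_Pi columns, by 1.45-fold in the means, but at a level too low to enter. Because each column holds both genes, their ratio does not depend on any factor that scales a whole column: per kb of exon, ARR7 exceeded ARR15 by 11.5 and 11.4 times in low_Pi and by 19.8 and 20.9 times in plus_Pi, on low values of ARR15.

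ARR8 and ARR9 are negative regulators of cytokinin signalling. ARR8 (AT2G41310) had 1928 and 1799 in low_Pi versus 3398 and 3684 in plus_Pi. The groups did not overlap, and the means of 1863.5 and 3541 stood 1.90-fold apart, just under the size of a call (log2 -0.91, or -0.66 relative to the median gene). ARR9 (AT3G57040) had 1128 and 1005 against 1707 and 1941, lower in both low_Pi columns by 1.71-fold in the means (log2 -0.75, or -0.50 relative to the median gene). The 2 genes were lower by similar amounts, with a gap of 0.16 between their log2 differences, and ARR8 exceeded ARR9 per kb of exon by 1.37 and 1.43 times in low_Pi and 1.59 and 1.52 times in plus_Pi.

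ARR5 and ARR6 are early cytokinin targets, and the ARR5 promoter is widely used as a cytokinin reporter. ARR5 (AT3G48100) had 1241 and 1120 in low_Pi versus 1805 and 2041 in plus_Pi, without overlap (log2 -0.68, or -0.43 relative to the median gene). ARR6 (AT5G62920) had 1438 and 1319 against 1477 and 1679, so that the upper low_Pi value came close to the lower plus_Pi value (log2 -0.19, but 0.07 relative to the median gene and 0.08 with median-of-ratios scaling). The order within the pair was opposite in the 2 groups: ARR5 stood at 0.868 and 0.854 of ARR6 per kb of exon in low_Pi and at 1.23 and 1.22 of it in plus_Pi. In the TAIR10.1 RefSeq annotation ARR6 shares 348 bases with AT5G62910, which had 425 and 414 in low_Pi and 634 and 690 in plus_Pi. ARR8 and ARR9 overlap long non-coding RNA genes by 299 and 231 bases, which were not analysed here. Use of strand in counting was not given in the sources used here, so reads of overlapping genes may be mixed.

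ARR3 and ARR4 are another pair, and ARR4 is known to interact with the light receptor phytochrome B. ARR4 (AT1G10470) had 4778 and 4390 in low_Pi and 4659 and 5005 in plus_Pi. The columns overlapped, at a log2 difference of -0.08, or 0.18 relative to the median gene. ARR3 (AT1G59940) had 471 and 431 against 505 and 540, slightly lower in both low_Pi columns (log2 -0.20, but 0.06 relative to the median gene). With median-of-ratios scaling both genes lay above 0, at 0.06 for ARR3 and 0.20 for ARR4, so the data give no firm direction for this pair.

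ARR16 and ARR17 have the shortest coding sequences of the family in the RefSeq annotation, 498 and 465 bases, where the others have 555 to 972. ARR17 (AT3G56380), whose poplar relative takes part in sex determination, had 161 and 137 in low_Pi versus 33 and 42 in plus_Pi. Both low_Pi values exceeded both plus_Pi values, and the means of 149 and 37.5 stood 3.97-fold apart. On the scale with the pseudocount the log2 difference was 1.27, or 1.52 relative to the median gene, and 3.41% of all genes entered were as high or higher. Its size rests on low values: it was 1.88 with a pseudocount of 4.15, 0.54 with one of 208 and 1.99 as a plain ratio of means. ARR16 (AT2G40670) had 142 and 135 against 63 and 73, again higher in both low_Pi columns, with means of 138.5 and 68, which stood 2.04-fold apart. Its log2 difference was 0.72 with the pseudocount, 0.97 relative to the median gene and 1.03 as a ratio of means, which alone would have made it a 2-fold call. Per kb of exon ARR16 stood at 0.263 and 0.293 of ARR17 in low_Pi and at 0.568 and 0.517 of it in plus_Pi. The order depends on the length used, since ARR16 has 2076 exon bases. Per kb of coding sequence ARR16 lay below ARR17 in low_Pi (means of 278 and 320) but above it in plus_Pi (137 and 80.6).

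**Figure D2:**
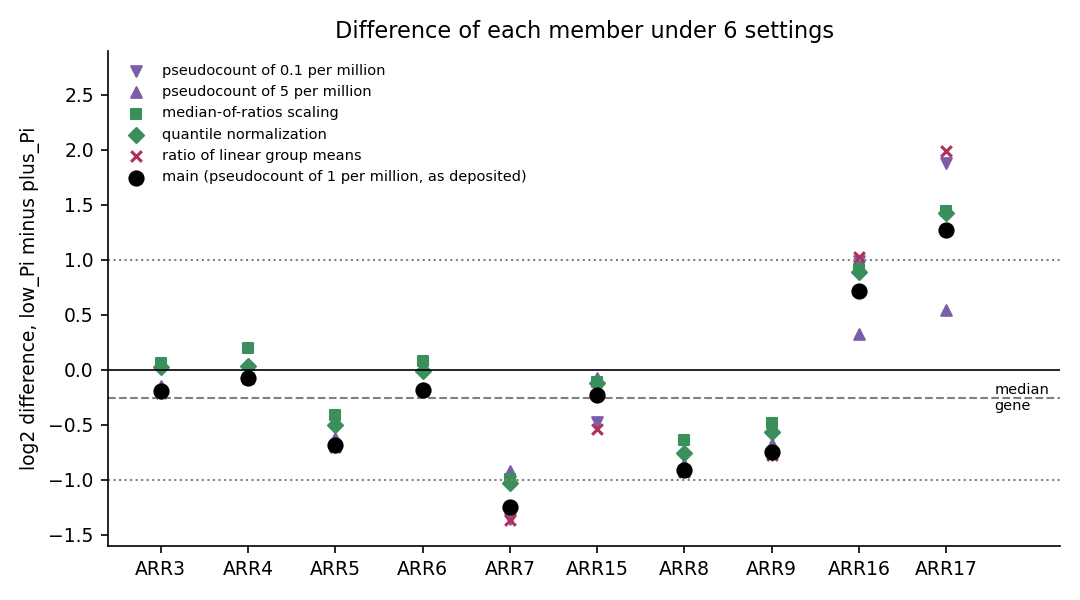
Log2 difference between low_Pi and plus_Pi for each type-A gene (y axis) under the main setting (black circles) and 5 others. Dotted lines mark 2-fold and the dashed line the median gene at -0.26. ARR5, ARR7, ARR8 and ARR9 lie below 0 and ARR16 and ARR17 above 0 in all 6 settings shown, while ARR3, ARR4 and ARR6 change sign with median-of-ratios scaling.

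Levels were compared between members after division by exon length, taken from the TAIR10.1 RefSeq annotation. ARR4 had the highest level in both groups, with mean values per kb of exon of 2184 in low_Pi and 2302 in plus_Pi. In plus_Pi it was followed by ARR8 (1494), ARR5 (1326), ARR6 (1082), ARR9 (963), ARR7 (726) and ARR3 (399), with ARR17 (60.7), ARR15 (35.7) and ARR16 (32.8) far below. The columns of ARR6 and ARR9 overlapped there. In low_Pi the order after ARR4 was ARR6 (945), ARR5 (814), ARR8 (786), ARR9 (563), ARR3 (344), ARR7 (281) and ARR17 (241), then ARR16 (66.7) and ARR15 (24.6), and the columns of ARR5 and ARR8 overlapped. ARR17 thus moved from far below ARR7 and ARR3 to close beneath them. Per kb of coding sequence ARR4 still led, with ARR8 second in both groups. By that length ARR16 (137) lay above ARR17 (80.6) and ARR15 (62.0) in plus_Pi, so the order of these low genes depends on the length used.

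The family as a whole had a smaller share of the column total in low_Pi. The 10 genes summed to 275 and 273 parts per 1e+06 of the column total in low_Pi and to 353 in both plus_Pi columns. Their mean sums of 11103 and 15049.5 stood 1.36-fold apart, a log2 ratio of -0.44. Much of this was shared by other genes, since the median entered gene lay at -0.26, and at -0.19 with a common column total. Its make-up differed too. The sets of genes summed here were formed by the direction of their differences above, so the direction of their shares follows from that choice. ARR5, ARR7, ARR8 and ARR9 together made up 39.1% of the family sum per kb of exon in both low_Pi columns, against 53.4% and 53.7% in plus_Pi. ARR4 alone made up 34.9% and 35.0% in low_Pi against 27.7% and 27.0% in plus_Pi. ARR16 and ARR17 together had a larger but still small share in low_Pi, with 5.04% and 4.80% there and 1.05% and 1.17% in plus_Pi.

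**Figure D3:**
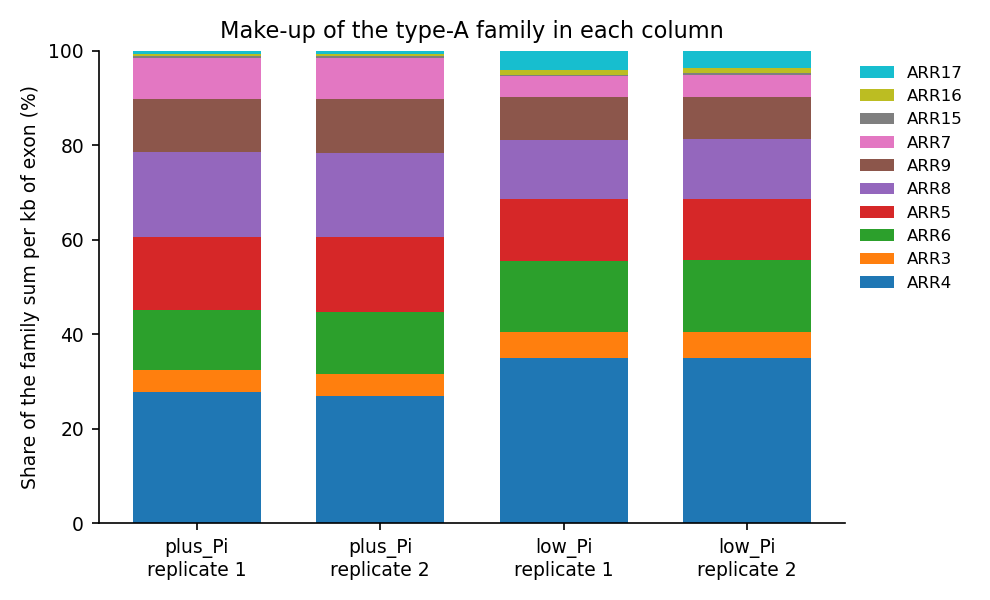
Share of each type-A gene in the family sum per kb of exon (y axis, percent) in each of the 4 columns. The columns of a group are alike, the ARR4 block at the base is taller in low_Pi (34.9% and 35.0%) than in plus_Pi (27.7% and 27.0%), and ARR16 and ARR17 at the top hold up to 5.04%.

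The steps that lead to the type-A genes were then set beside them. Of 9 receptor and phosphotransfer genes, 8 were entered, with a median log2 difference of -0.11. Among these, 1 was 2-fold higher, where 4.58% of all genes entered were, and none was 2-fold lower. The higher gene was AHP1, which passes phosphate from receptors to response regulators, with 4022 and 3727 in low_Pi versus 1144 and 1274 in plus_Pi (log2 1.65). Of 11 type-B genes, 6 were entered and none was 2-fold apart (median -0.33, range -0.53 to -0.10). The 2 with the highest values were ARR1 (log2 -0.25) and ARR12 (-0.10), both transcription factors with a main part in root cytokinin responses, and with median-of-ratios scaling they lay at 0.03 and 0.18.

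Of 10 hormone synthesis genes, 6 were entered. All 6 were below the median gene (median -0.80). At least 2-fold lower were 2 of them, where 4.47% of all genes entered were, and none was 2-fold higher. Of the 4 not entered, IPT4, IPT6 and IPT8 were listed at 0 in every column, and IPT1, named after its values were seen, was higher in both low_Pi columns, with 26 and 25 versus 15 and 15 in plus_Pi. IPT3, which makes the cytokinin precursor from adenine nucleotides, had 56 and 48 in low_Pi versus 373 and 404 in plus_Pi (log2 -2.20, and -2.81 and -1.20 with pseudocounts of 4.15 and 208). IPT7, an enzyme gene of the same kind, was at -1.19, and at -0.50 with a pseudocount of 208. Its low_Pi mean of 37.5 lay below the 41.5 needed to enter, so it entered only through its plus_Pi values.

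Of 11 other cytokinin-induced genes, 10 were entered. Among these, 2 were at least 2-fold lower, where 4.47% of all genes entered were, and none was 2-fold higher. Relative to the median gene 6 were lower and 4 higher, and the list median was -0.49, or -0.23 relative to that gene. Among the lower genes was LBD3, which entered only through its plus_Pi values. CYP735A2, which turns precursors into trans-zeatin types, had 485 and 462 in low_Pi versus 1402 and 1511 in plus_Pi (log2 -1.54), and CKX4, which breaks cytokinins down, had 365 and 333 against 932 and 1040 (log2 -1.39). Both were lower than ARR7 on this scale.

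**Figure D4:**
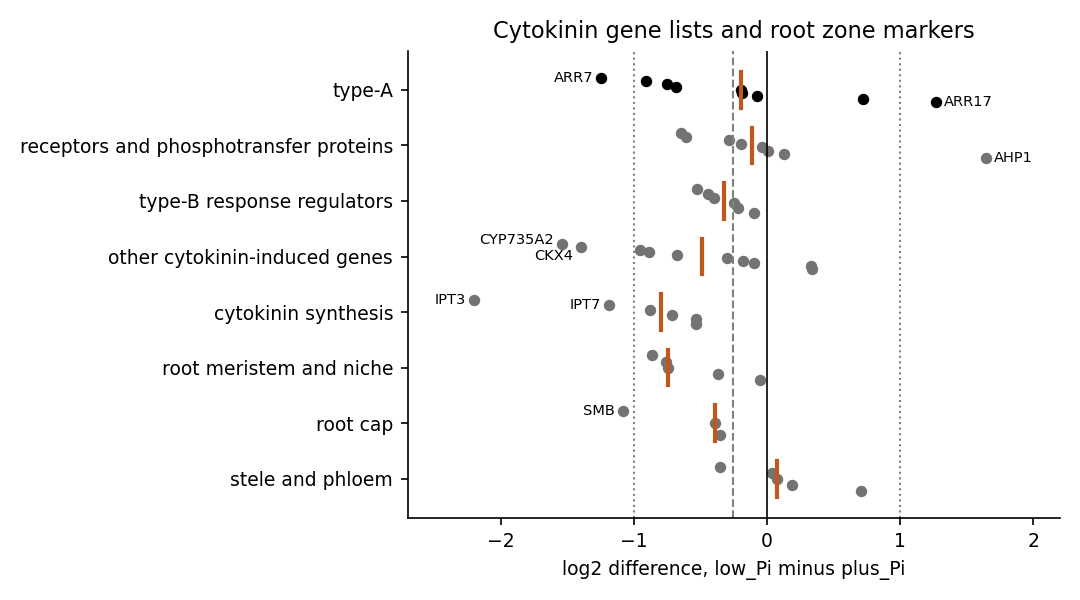
Log2 difference of each entered gene (points) by list, with the list median as an orange bar, the median gene as a dashed line and 2-fold as dotted lines; genes at least 2-fold apart are named. The type-A genes span -1.24 to 1.27, and all 6 entered synthesis genes lie left of the median gene.

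Markers of root zones were set beside these values. The 5 meristem and stem cell niche markers, none at 0, summed to 1557 and 1392 in low_Pi and 1930 and 2163 in plus_Pi. With the pseudocount of 41.5 none was 2-fold apart, and their median was -0.75, or -0.49 relative to the median gene. As a plain ratio of means WOX5, a stem cell niche gene named after its values were seen, with 54 and 51 in low_Pi versus 122 and 137 in plus_Pi, was 2.47-fold lower, while the cyclin genes CYCB1;3 and CYCB1;1 lay at -0.05 and -0.36. The 3 root cap markers, none at 0, summed to 582 and 540 in low_Pi versus 899 and 984 in plus_Pi. SMB, a root cap transcription factor gene, was at -1.08 (-0.84 with median-of-ratios scaling). The other root cap markers, BRN1 (-0.35) and BRN2 (-0.39), lay closer to the median gene at -0.26. The 5 stele and phloem markers, none at 0, summed to 12461 and 11611 in low_Pi versus 9838 and 10730 in plus_Pi, with the phloem sucrose transporter gene SUC2 at 0.71 and AHA3, a companion cell proton pump gene, at -0.35. Of the root markers, the root hair genes EXPA7 (1.67) and COBL9 (1.63) were at least 2-fold higher, where 4.58% of all genes entered were. CASP1 was at 0.56, while PYK10 (-0.13), SHR (-0.38) and SCR (-0.45) lay below 0. All 6 green tissue markers lay below 0. Among them CA1, a carbonic anhydrase gene, was at least 2-fold lower (-1.32, and -0.65 with a pseudocount of 208), where 4.47% of all genes entered were. The part of these shifts in the differences of the type-A genes was not tested.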

How the data were processed

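RNA sequencing of 4 root libraries was used. Per the labels' protocols, mRNA was captured on oligo(dT) beads and fragmented before library synthesis. Tools named in the submitters' processing notes, without roles, are HISAT2, HTSeq, edgeR, FastQC and CASAVA 1.4. The values are a score made by the authors, deposited as whole numbers under the name normalized counts; how they were normalized was not given in the sources used here. Their depth is unknown, so differences were not tested with a count model and no counting interval or floor is given. Read-count noise served only as the benchmark for comparing the columns of a group. The build was not given in the sources used here, so no coordinates or sequences are printed. TAIR10.1 RefSeq supplied names (27445 of 27655 identifiers), lengths and overlaps.

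Differences were computed with Python 3.11.15, pandas 2.3.3 and numpy 2.4.6, as mean log2 values after a pseudocount of 41.5. The call is a size of 2-fold, without a test. limma 3.58.1 in R 4.3.3 was run over the 4 columns as an alternative only, because its p-values measure column spread. The calculations were tested on simulated data. Other settings were pseudocounts of 4.15 and 208, no filter or a mean of at least 208, median-of-ratios, trimmed-mean, common-total and quantile scaling, linear means, 1.5-fold and 4-fold, and the omission of each library. The members and gene lists were chosen with earlier results of these data known. All members are named, and from each other list up to 3 members at least 2-fold apart, or the 2 with the highest means. Libraries are not stated to come from separate cultures.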

Additional observations from a re-analysis of the deposited data

How the results depend on the processing

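Of the type-A genes, 1 was at least 2-fold higher as reported, 0 were so with a pseudocount of 208, 0 with a mean of at least 208 (where ARR16 and ARR17 were not entered), 2 as a ratio of linear means, 2 at 1.5-fold and 0 at 4-fold. At least 2-fold lower was 1 as reported, 0 with a pseudocount of 208, 0 with median-of-ratios scaling, 4 at 1.5-fold and 0 at 4-fold. Of the synthesis genes, 2 were 2-fold lower as reported and 1 was with a pseudocount of 208 or a mean of at least 208. Leaving out any 1 column changed none of these counts. Because the columns of a group were nearly proportional, this is no check of replication. Over 11 settings that alter a member's difference, ARR5 ran from -0.77 to -0.41, ARR7 from -1.37 to -0.92, ARR8 from -0.97 to -0.64, ARR9 from -0.84 to -0.48, ARR16 from 0.33 to 1.03 and ARR17 from 0.54 to 1.99. The median member, at -0.20, lay at 0.06 with median-of-ratios scaling, which moves all genes up together. limma called 6 members (2 higher, 4 lower) as reported and 9 (5 higher, 4 lower) with median-of-ratios scaling. With the replicate number as a block it called 6, against 38.5% of all genes. The labels do not say that equal numbers pair libraries, and across 18729 genes, which share columns and depth, the deviations of columns with the same number had a correlation of -0.11.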

Other observations

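Some other cytokinin-induced genes are named here after their values were seen. ACR4, a gene with repeated ACT domains, had 1475 and 1319 in low_Pi versus 2485 and 2739 in plus_Pi (log2 -0.88), close to ARR8. LBD3, a LOB-domain transcription factor gene, had 20 and 17 against 77 and 73, a 4.05-fold difference in the means that gave a log2 difference of -0.96 with the pseudocount of 41.5 and -1.81 with one of 4.15. The low_Pi mean of LBD3, 18.5, lay below the 41.5 needed to enter, so it entered only through its plus_Pi values. CKX5, which breaks cytokinins down, and UGT76C2, which glucosylates them, were instead higher in both low_Pi columns, with 529 and 504 against 385 and 422 for CKX5 and 1591 and 1475 against 1141 and 1263 for UGT76C2, each 1.28-fold in the means. AHP6, a phosphotransfer-like protein that inhibits the pathway, had 86 and 72 in low_Pi versus 130 and 154 in plus_Pi. CFB, an F-box gene, and CRF5, a transcription factor gene, were at -0.10 and -0.18 and lay above 0 with median-of-ratios scaling, at 0.18 and 0.06. The meristem marker PLT1 (log2 -0.76) was lower in both low_Pi columns.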
